A study of Homo sapiens with 6 samples.

Results

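The genes described are 10 members of the machinery that senses double-stranded RNA, out of 18417 genes measured with their own probe set on the array. They were taken by gene symbol, from a list that holds 8 sensors and effectors known to be interferon-inducible (RIGI, IFIH1, DHX58, EIF2AK2, TLR3, ADAR, DDX60 and DDX60L) and 2 adaptors regarded as constitutive (MAVS and TICAM1). Each had 1 probe set. The study put siRNA into A673 and SK-N-MC, both permanent cell lines of Ewing sarcoma, a bone cancer of the young that carries an EWSR1 fusion oncogene. Each line was transfected with siDKK2, against the secreted Wnt modulator DKK2, with siITM2A, against the membrane protein gene ITM2A and used as an independent knock-down, or with a non-silencing control siRNA. The titles give the ITM2A siRNA a different number in the 2 lines, so whether both received the same oligonucleotide is not known. There was 1 array per line and siRNA, 6 in all, and no repeat culture of a condition is named. Each siRNA effect was therefore measured in 2 lines as its replicates, which limits the precision of every value. Levels are log2 values, on which a difference of 1 is 2-fold.

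Cells read long double-stranded RNA as a sign of viral replication. RIGI and IFIH1, the helicase receptors RIG-I and MDA5, bind such RNA in the cytosol and signal through MAVS on mitochondria, while TLR3 reads it in endosomes and signals through TICAM1 (TRIF). Both routes switch on interferon genes, and interferon in turn raises the sensors themselves through the factor ISGF3, so that the sensor genes belong to the interferon-stimulated set whereas the adaptors are held to be largely constant. EIF2AK2 (PKR) halts translation when it binds double-stranded RNA, and ADAR edits adenosines in it.

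All 6 arrays were alike in overall level, with medians of 3.35 to 3.44 on the log2 scale over 33297 probe sets. DKK2 stood at 7.73 with siDKK2 against 8.64 with the control siRNA in A673, and at 6.50 against 8.01 in SK-N-MC, so that 53.0% and 35.1% of the control level remained by value. ITM2A stood at 5.03 with siITM2A against 8.52 with the control in A673, and at 6.10 against 9.48 in SK-N-MC. Of 10 measured Ewing sarcoma markers 9 lay above the array's median on all 6 arrays. The 7 measured leukocyte markers lay at 1.90 to 3.00 and below the median on all arrays. Of the fibroblast markers 2 of 6, and of the epithelial and endothelial markers 7 of 8, were also below the median on all arrays. In each of these lists 1 marker lay above the median on all arrays, and the lists reached 8.75 and 9.76. The fibroblast list held median levels of 2.29 to 2.41 in A673 and of 3.65 to 4.12 in SK-N-MC, and its part in the line comparison was not tested. All values are of bulk RNA, in which fewer cells expressing a gene and less RNA per cell cannot be told apart.

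The promoters of these genes are shown because interferon acts on its target genes through a paired GAAA element, the interferon-stimulated response element. RefSeq windows of 300 bases (250 before the annotated start site to 50 after it, GRCh38.p14) were searched on both strands for GAAA, any 2 bases, GAAA. RIGI held instead a pair 1 base apart, so GAAA, any 1 base, GAAA was added to the search after that was seen. Windows were at hand for 9 of the 10 members. DHX58 had none, so its promoter was not searched. The first motif was in 3.57% of all 35116 windows, the second in 3.12%, and at least 1 of them in 6.4%. Capitals mark the matches, each stretch reads 5′ to 3′ along the gene, and lower-case bases are the surrounding promoter:
RIGI, chr9:32526366-32526424, minus strand: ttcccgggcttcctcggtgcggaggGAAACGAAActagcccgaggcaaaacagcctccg
IFIH1, chr2:162318675-162318868, minus strand: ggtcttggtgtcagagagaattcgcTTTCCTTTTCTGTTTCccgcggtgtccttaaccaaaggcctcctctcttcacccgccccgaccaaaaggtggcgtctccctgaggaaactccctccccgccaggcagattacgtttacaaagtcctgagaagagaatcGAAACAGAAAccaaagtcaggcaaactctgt
EIF2AK2, chr2:37156971-37157011, minus strand: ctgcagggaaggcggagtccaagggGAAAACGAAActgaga
TLR3, chr4:186069127-186069165, plus strand: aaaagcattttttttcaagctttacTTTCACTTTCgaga
DDX60, chr4:168318771-168318865, minus strand: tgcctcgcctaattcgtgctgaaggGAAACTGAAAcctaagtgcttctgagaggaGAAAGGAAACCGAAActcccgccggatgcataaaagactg
DDX60L, chr4:168480508-168480597, minus strand: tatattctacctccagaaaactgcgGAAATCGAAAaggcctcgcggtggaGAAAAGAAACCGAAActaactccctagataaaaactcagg
MAVS, chr20:3846584-3846833, plus strand: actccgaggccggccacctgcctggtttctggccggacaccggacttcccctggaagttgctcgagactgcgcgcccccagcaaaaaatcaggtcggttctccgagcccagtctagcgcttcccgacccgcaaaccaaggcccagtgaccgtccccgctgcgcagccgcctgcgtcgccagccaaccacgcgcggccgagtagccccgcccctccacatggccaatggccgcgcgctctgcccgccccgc

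IFIH1 held 3 matches to the first motif, 2 of them overlapping on the opposite strand and starting 159 and 153 bases before the start site, and 1 starting 21 bases before it. DDX60 and DDX60L each held 2 matches to the first motif and 1 to the second, and in both genes the second motif overlapped the nearer copy of the first. These matches began 88, 58 and 53 bases before the start site in DDX60 and 80, 55 and 50 bases before it in DDX60L, paralogs that both lie on chromosome 4. EIF2AK2 held 1 match that began 6 bases before the start site, TLR3 1 that began 4 bases before it, and RIGI 1 match to the second motif 203 bases before it. No match lay in the window of MAVS, of which the 250 bases before the start site are printed, in that of TICAM1, or in the 3 windows of ADAR. A match is a run of letters and not evidence of a bound factor.

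**Figure D1:**
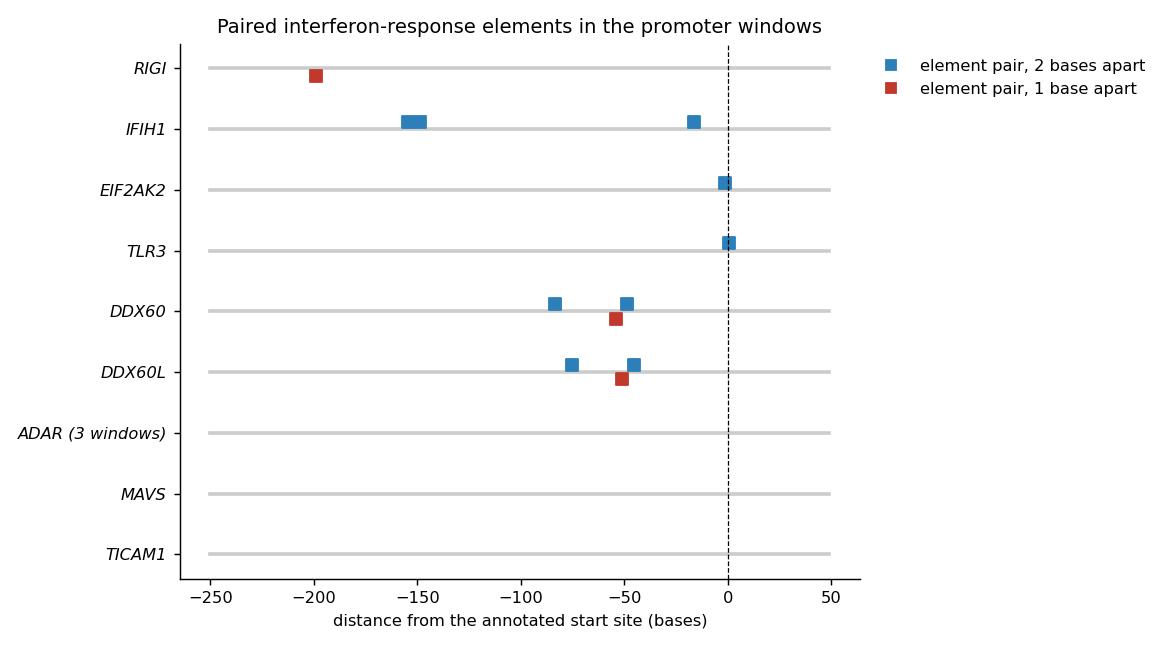
Position of paired elements in the promoter windows of 9 genes. The x axis is the distance in bases from the annotated start site (dashed line), grey bars are the windows, and squares are matches to the motif with a spacer of 2 bases (blue) or 1 base (red). The matches of DDX60 and DDX60L lie 88 to 41 bases before the start site, and ADAR, MAVS and TICAM1 have none.

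With siDKK2 the receptors of the RIG-I family were lower by value than with the control siRNA, and IFIH1 set the lines apart. RIGI stood at 4.59 with siDKK2, 6.83 with siITM2A and 7.40 with the control siRNA in A673, and at 3.24, 3.997 and 4.40 in SK-N-MC in the same order of siRNAs. Its siDKK2 array was thus the lowest of the 3 in each line, 7.01-fold below the control in A673 and 2.23-fold below it in SK-N-MC. IFIH1 stood at 2.89 with siDKK2, 5.05 with siITM2A and 5.76 with the control in A673. Its SK-N-MC values were 5.40, 5.44 and 5.57. The A673 siDKK2 array alone was low for IFIH1, 7.31-fold below its control, and the SK-N-MC arrays covered only 0.16 log2 units between the lowest and the highest. IFIH1 on that array, and RIGI on the SK-N-MC siDKK2 array, lay below the array's median, where differences are compressed and the true fold may be larger. DHX58 encodes LGP2, a receptor of the family without the signalling domains. It stood at 2.70, 3.03 and 3.35 in A673 and at 2.43, 2.91 and 2.55 in SK-N-MC, below the array's median on all 6 arrays.

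Of the sensors lower in both lines, EIF2AK2 had the most even difference as a ratio of the lines (50.3%), though not in log2 units. It stood at 7.58 with siDKK2, 9.25 with siITM2A and 9.58 with the control siRNA in A673, and at 6.83, 7.64 and 7.83 in SK-N-MC. The siDKK2 array was lowest in each line, 3.99-fold below the control in A673 and 2.01-fold below it in the other line. The fitted difference was -1.50 ± 0.23 (SE, n = 2 lines; 95% interval -2.02 to -0.98). For RIGI the fitted difference was -1.98 ± 0.34 (interval -2.76 to -1.20). Neither passed the threshold of 0.05 over all genes (limma, adjusted p = 0.209 for EIF2AK2, with 0.00317 to 1.00 over its alternatives, and 0.213 for RIGI, with 0.000449 to 1.00).

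DDX60 and DDX60L, helicase genes reported to assist RIG-I signalling, differed in A673 and hardly in SK-N-MC. DDX60 stood at 2.93 with siDKK2, 5.05 with siITM2A and 5.87 with the control in A673, against 2.41, 2.86 and 2.73 in SK-N-MC, where all arrays lay below their medians. DDX60L stood at 3.38, 5.65 and 6.68 in A673 and at 3.39, 3.44 and 3.56 in SK-N-MC. In A673 it had the largest difference of the 10 members, 9.81-fold lower with siDKK2, and the SK-N-MC control array lay near the level that A673 had with siDKK2. On the A673 siDKK2 array DDX60L lay close to the array's median (3.35) and DDX60 below it. Differences are compressed there, so the ranking of the members by fold is limited. The paralogs are alike in sequence and their probes may pick up both transcripts, which was not tested. The fitted differences were -1.63 ± 0.48 for DDX60 and -1.73 ± 0.57 for DDX60L, and -1.52 ± 0.51 for IFIH1 (n = 2 lines each; limma, adjusted p = 0.417, 0.473 and 0.475).

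ADAR differed less. Its values were 7.29 with siDKK2, 7.85 with siITM2A and 8.06 with the control in A673, and 7.50, 7.35 and 7.77 in SK-N-MC, where siITM2A was the lowest. ADAR makes an interferon-induced long form and a constitutive short form, which this probe set does not separate. TLR3 stood at 2.52, 2.18 and 2.43 in A673 and at 2.13, 2.08 and 2.15 in SK-N-MC, below the median on every array. Its fitted difference with siDKK2 was 0.03 ± 0.13 (interval -0.28 to 0.34). Its promoter, printed above, does hold a paired element.

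**Figure D2:**
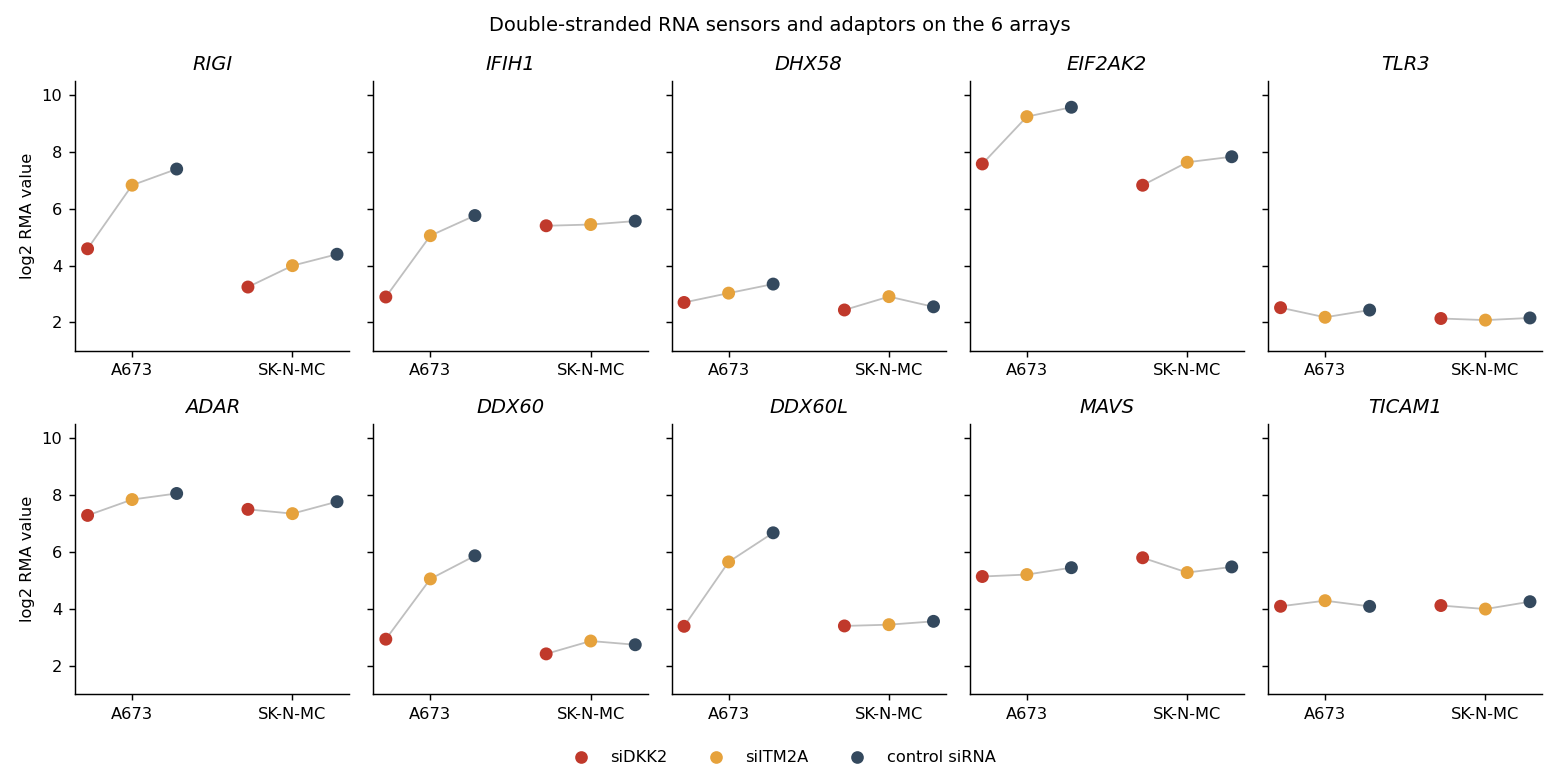
Level of each of the 10 genes on every array. The y axis is the deposited log2 RMA value, each point is 1 array, and within a line the points run from siDKK2 through siITM2A to the control siRNA. RIGI and EIF2AK2 are lowest with siDKK2 in both lines, IFIH1 is at 2.89 on the A673 siDKK2 array alone, and MAVS lies between 5.14 and 5.80 throughout.

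The adaptors did not share these differences. MAVS stood at 5.14 with siDKK2, 5.20 with siITM2A and 5.45 with the control in A673, and at 5.80, 5.28 and 5.47 in SK-N-MC. Its siDKK2 array was the lowest in A673 and the highest in SK-N-MC. The fitted difference was 0.01 ± 0.18, with an interval of -0.40 to 0.41. TICAM1 stood at 4.09, 4.28 and 4.08 in A673 and at 4.11, 3.99 and 4.25 in SK-N-MC, with a fitted difference of -0.07 ± 0.15 and an interval of -0.41 to 0.28. The intervals of both adaptors leave out the fitted differences of RIGI and EIF2AK2, but hold those of DHX58 (-0.38) and TLR3 (0.03). That of MAVS still allows differences up to 0.41. Sensors were not tested against adaptors.

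Set against the adaptors, the inducible sensors had a median siDKK2 difference of -2.40 in A673, against -0.22 in SK-N-MC, while the 2 adaptors had -0.15 and 0.09 and all 18417 genes -0.04 and -0.01. All but TLR3 of the sensors, 7 of 8, were lower in both lines by value, and 0 of 2 adaptors were (31.6% of all genes). In A673 these 7 lay below the grey band of all genes in the figure of the pathway lists (-0.52 to 0.39). In SK-N-MC only RIGI and EIF2AK2 lay below that band (-0.42 to 0.38). The other sensors lay inside it there, as did both adaptors, so the count of signs says little for SK-N-MC. By size, 5 of the 8 sensors and 0 of the 2 adaptors were at least 2-fold lower in A673 (0.728% of all genes), namely RIGI, IFIH1, EIF2AK2, DDX60 and DDX60L. In SK-N-MC 2 of 8 sensors, RIGI and EIF2AK2, and 0 adaptors were (0.201% of all genes), and the same pair was so in both lines (0.0706%). In each line the lowest sensor difference lay below both adaptors, while TLR3 lay above both adaptors in A673, and TLR3 and DHX58 lay between them in SK-N-MC. As a share of the A673 difference, the SK-N-MC difference came to 50.3% for EIF2AK2, 41.1% for RIGI and 35.0% for ADAR, against 17.2% for DHX58, 11.0% for DDX60, 5.74% for IFIH1 and 4.91% for DDX60L. In SK-N-MC the control values of DHX58 and DDX60 already lay below the array's median and that of DDX60L (3.56) just above it, so for these 3 genes a small share is not evidence of a smaller response. A difference in response between lines could not be tested with 1 array each.

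Of the 10 members 0 passed the threshold with siDKK2 (limma over 18417 genes, 0.0109% of which passed), and 6 of 10 had an unadjusted p under 0.05 (8.68% of all genes), all 6 of them lower (5.71%): RIGI, IFIH1, EIF2AK2, ADAR, DDX60 and DDX60L. With an intensity trend in the moderation EIF2AK2 passed (adjusted p = 0.034). When the SK-N-MC control array was left out, RIGI (-2.44), EIF2AK2 (-1.78) and DDX60 (-2.52) passed, and when the siDKK2 array of that line was, RIGI (-2.77), IFIH1 (-2.72), EIF2AK2 (-1.96), DDX60 (-2.70) and DDX60L (-3.07) did. Those fits lean on A673 and add no replication. Without the A673 siDKK2 array, whose fit leans on SK-N-MC, the median of the sensors was -0.35, and the differences were -0.56 for DDX60, -0.39 for DDX60L, -0.31 for IFIH1, -1.20 for RIGI and -1.04 for EIF2AK2.

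**Figure D3:**
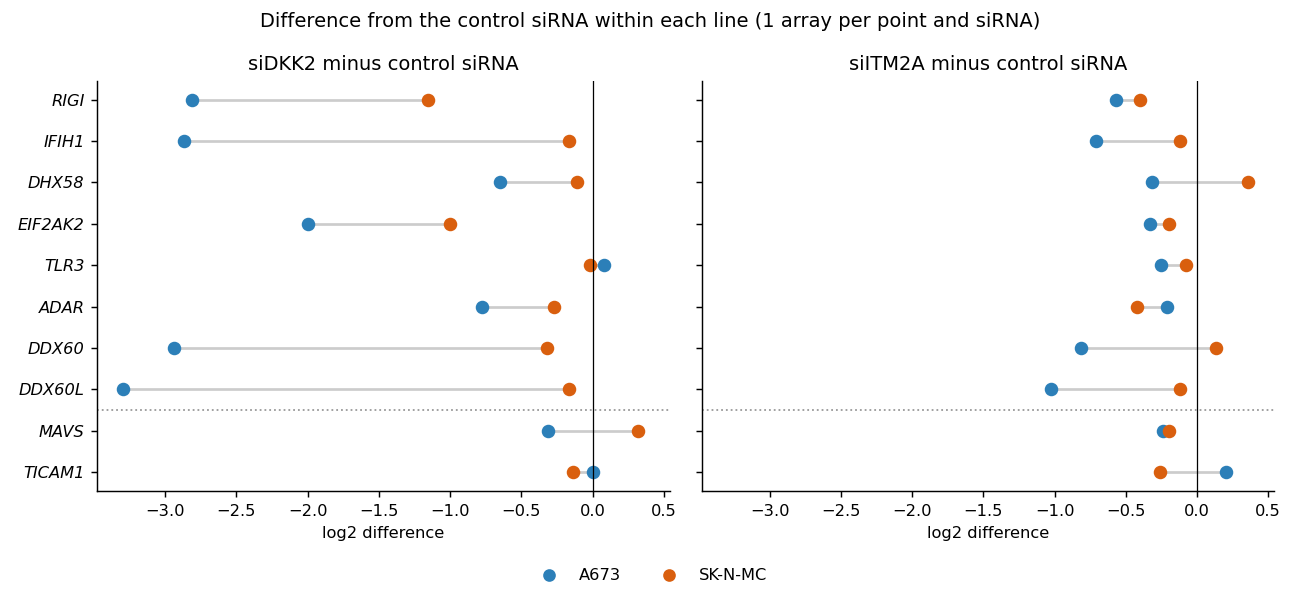
Difference from the control siRNA within each line, on the log2 scale, for siDKK2 (left) and siITM2A (right); blue is A673 and orange SK-N-MC, and the dotted line parts the 8 sensors from the 2 adaptors. With siDKK2 the A673 values of 5 sensors lie at or below -2.00, and with siITM2A every value lies between -1.03 and 0.36.

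With siITM2A the same control arrays serve as the comparison, so the differences of the 2 knock-downs are not separate results and are given side by side. The inducible sensors had a median of -0.45 with siITM2A against the control in A673, against -0.12 in SK-N-MC, and the adaptors -0.02 and -0.23. Of the sensors 6 of 8 were lower in both lines (30.7% of all genes), DHX58 and DDX60 being the exceptions. DDX60L, at -1.03, was the 1 member at least 2-fold lower in A673 (0.239% of all genes), and 0 were in SK-N-MC (0.076%). DDX60 differed by -0.81, IFIH1 by -0.71, RIGI by -0.57 and EIF2AK2 by -0.33 in A673. In SK-N-MC these genes differed by 0.13, -0.12, -0.40 and -0.19. Of the 10 members 0 passed (limma, 0 with an unadjusted p under 0.05, against 0.0109% and 6.91% of all genes). The fitted median of the sensors was 0.17 when the A673 control array was left out and -0.74 when that of SK-N-MC was. Such a fit takes the gap between the lines from the other siRNAs, siDKK2 included. The SK-N-MC arrays alone gave -0.12.

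By value, 7 of the 8 sensors in A673 were lowest with siDKK2, intermediate with siITM2A and highest with the control siRNA, TLR3 being the exception. Of all genes 21.7% had this order. In SK-N-MC 4 of 8 had it, RIGI, IFIH1, EIF2AK2 and DDX60L (17.4%), and the same 4 had it in both lines (4.7%). For IFIH1 and DDX60L the SK-N-MC difference between siDKK2 and siITM2A was only -0.04 each. All sensors share the same arrays, 1 per siRNA and line, so these counts are not separate observations of an order. Of the adaptors MAVS had it in A673 alone and TICAM1 in neither line.

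Taken directly, siDKK2 against siITM2A uses no control array in the difference. The sensors' median was -1.90 in A673, with -0.25 in SK-N-MC, against -0.13 and 0.32 for the adaptors. Of the sensors 6 of 8 were lower with siDKK2 in both lines (27.5% of all genes). In A673 5 of 8 were at least 2-fold lower (0.505%), while SK-N-MC had 0 (0.168%). RIGI was 4.72-fold lower with siDKK2 than with siITM2A in A673, while SK-N-MC gave 1.69-fold. EIF2AK2 was lower 3.17-fold in the first line and 1.75-fold in the second, and IFIH1 4.47-fold and 1.03-fold. The fitted differences were -1.50 ± 0.34 for RIGI (limma, adjusted p = 0.321) and -1.24 ± 0.23 for EIF2AK2 (adjusted p = 0.250). Of the 10 members 0 passed (3 with an unadjusted p under 0.05, against 0.0163% and 8.32% of all genes). Without the SK-N-MC siDKK2 array 5 passed, RIGI (-2.28), IFIH1 (-2.31), EIF2AK2 (-1.70), DDX60 (-2.36) and DDX60L (-2.50), where siDKK2 rests on its A673 array.

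Between the lines, 4 of 10 members were higher in A673 past the threshold (13.8% of all genes), and 0 were lower (14.7%; 28.5% in either direction). RIGI was higher by 2.39 ± 0.28 (SE, n = 3 siRNAs; limma, adjusted p = 0.000295), DDX60 by 1.95 ± 0.39 (adjusted p = 0.00556), DDX60L by 1.77 ± 0.47 (adjusted p = 0.0215) and EIF2AK2 by 1.37 ± 0.18 (adjusted p = 0.000647). With no siRNA term the calls of EIF2AK2 (adjusted p = 0.0579) and DDX60L (adjusted p = 0.0766) were lost. DDX60L also lost its call when either control array was left out (1.10). When either siITM2A array was, DDX60L (1.55) and DDX60 (1.83) lost theirs.

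The gap between the lines differed in size from siRNA to siRNA, which was not tested. With siDKK2 RIGI was higher in A673 than in SK-N-MC by 1.35, with siITM2A by 2.83 and with the control by 3.00. For DDX60 the gap was 0.52, 2.19 and 3.13, and for DDX60L -0.01, 2.21 and 3.12. For IFIH1 the gap was -2.51 with siDKK2, -0.39 with siITM2A and 0.20 with the control, so that the lines were close with the control siRNA and apart with siDKK2. At least 2-fold higher in A673 were 1 of 8 sensors with siDKK2 (4.77% of all genes), 4 with siITM2A (5.34%) and 4 with the control (5.23%). MAVS had gaps of -0.66, -0.07 and -0.03, and TICAM1 of -0.03, 0.30 and -0.16. Without either control array IFIH1 passed as lower in A673 (-1.45, limma, adjusted p = 0.0168).

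**Figure D4:**
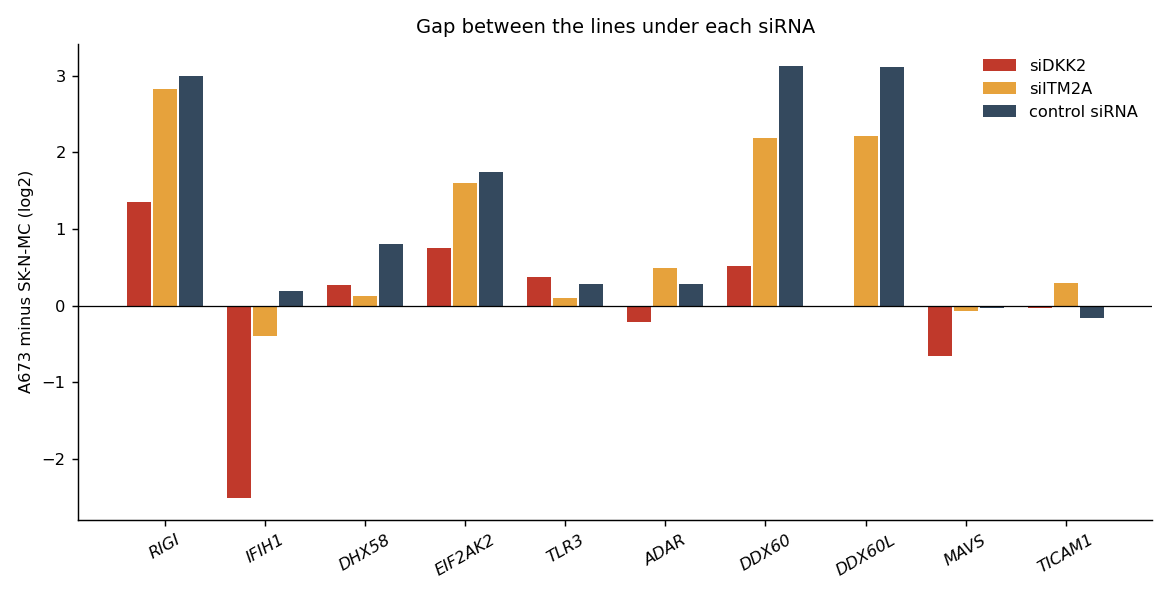
Gap between the lines, A673 minus SK-N-MC on the log2 scale, for each gene with siDKK2 (red), siITM2A (yellow) and the control siRNA (dark blue); each bar is the difference of 2 arrays. With siDKK2 the gaps of DDX60 and DDX60L are 0.52 and -0.01, against 3.13 and 3.12 with the control, while that of IFIH1 is -2.51.

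The rest of the pathway was set beside the sensors by lists of partners, and no member of any list passed the threshold with siDKK2. Of 20 measured cofactors and regulators of the RIG-I-like receptors 7 were lower and 7 higher in both lines by value (31.6% of all genes were lower in both and 23.2% higher in both, the shares against which the counts of every list below are to be read), with medians of 0.10 in A673, against -0.01 in SK-N-MC. At least 2-fold lower in A673 were 3 of the 20: IFIT5 (-2.28 and -0.86), an RNA-binding protein, TRIM25 (-1.52 and -0.37), the ubiquitin ligase that acts on RIG-I, and ZNFX1 (-1.23 and -0.03), a helicase gene named after its values were seen. IFIT5 and TRIM25 are themselves known interferon-induced genes. The mitochondrial fusion gene MFN2 differed by -0.41 and -0.58, and the deubiquitinase gene OTUB1 by 0.20 and 0.47.

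Downstream of the adaptors, 9 of 18 genes that carry the signal to IRF3 and NF-kB were lower in both lines and 2 higher, with medians of -0.23 and -0.01. CHUK, a kinase of the NF-kB pathway, differed by -0.31 and -0.30, TRAF3, which links MAVS to the kinase TBK1, by -0.29 and -0.29, AZI2 by -0.24 and -0.24 and IKBKG by 0.17 and 0.33. Around PKR, 8 of 12 genes were lower in both lines and 1 higher, with medians of -0.19 and -0.13. EIF2S1, the substrate of PKR, differed by -0.38 and -0.21, the PKR inhibitor gene DNAJC3 by -0.19 and -0.66, the phosphatase subunit gene PPP1R15B by -0.29 and -0.33, and EIF2AK1, another kinase of the same substrate, by 0.38 and 0.15.

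Genes of TLR3 trafficking and the other endosomal receptors had medians of 0.09 and -0.07 (3 of 11 lower in both lines and 2 higher). The adaptor MYD88 differed by -0.44 and -0.35, the protease gene CTSL by -0.42 and -0.21, the chaperone gene HSP90B1 by -0.25 and -0.22 and LAMP1 by 0.20 and 0.07. Sensors of DNA and other nucleic acids had medians of -0.17 and -0.19 (9 of 14 lower in both lines and 1 higher). IFI16 differed by -1.44 and -0.34 and CGAS, the cytosolic DNA sensor, by -0.74 and -0.86, and the helicase genes DDX1 and DDX21 by -0.36 and -0.38 and by -0.26 and -0.31. Double-stranded RNA-binding proteins not induced by interferon had medians of -0.02 and -0.12 (5 of 12 lower in both lines and 1 higher), with the RNase gene DICER1 at -0.65 and -1.05, ADARB2 at -0.16 and -0.02, STAU1 at -0.04 and -0.11 and DROSHA at 0.10 and 0.04.

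The probe sets of the interferon genes were mostly dim: 6 of 8 lay below the array's median on all 6 arrays and IFNL2 on 5, so that the lack of a common direction among them says little. IFNB1, the gene of interferon beta, stood at 2.03 with siDKK2, 1.99 with siITM2A and 1.80 with the control in A673, and at 1.80, 1.84 and 1.79 in SK-N-MC. The 8 measured ligand genes had medians of 0.00 and 0.01, with IFNL3 at 0.87 and 0.38, IFNE at -0.25 and -0.10 and IFNL1 at -0.01 and -0.05. IFNL3 and its near-identical neighbour IFNL2, named after its values were seen, stood opposed in A673, where IFNL2 was at -1.40 (0.10 in SK-N-MC), and their probe sets may not tell them apart. Interferon-response outputs lay lower in both lines for 9 of 10 genes, with medians of -3.37 and -1.23, with IFIT1 at -4.71 and -1.95, OAS1 at -4.63 and -1.66, IFI44L at -4.71 and -1.62, and IFI44 at -3.15 and -1.40.

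**Figure D5:**
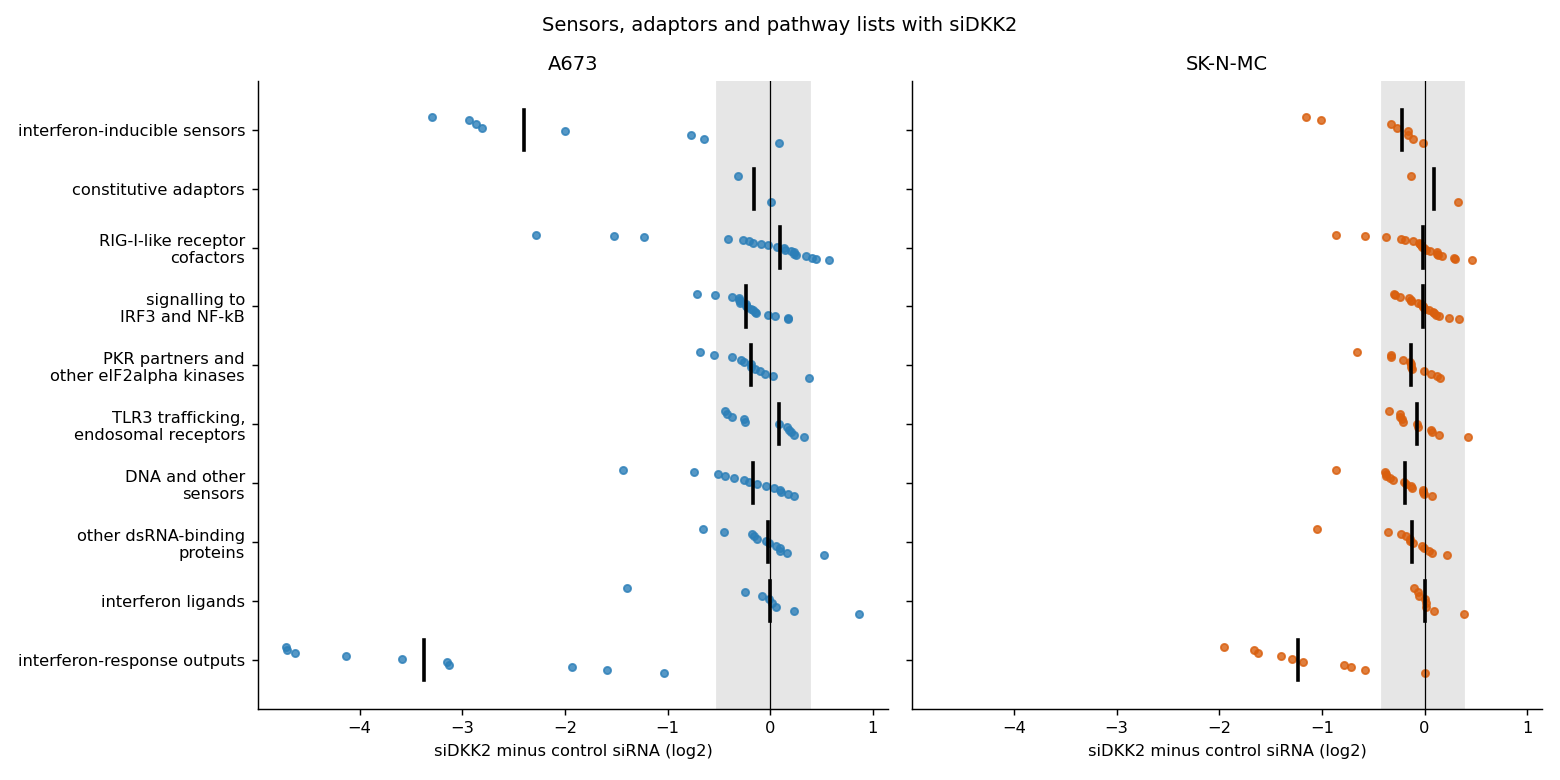
siDKK2 minus control siRNA, on the log2 scale, for each gene (points) of the sensors, the adaptors and 8 pathway lists in A673 (left) and SK-N-MC (right); black bars are list medians and the grey band holds the middle 90% of all genes. In A673 the sensors have a median of -2.40 and the outputs of -3.37, while the other medians lie between -0.23 and 0.10.

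The genes whose pattern was nearest to RIGI, after the mean of each line was taken off, were IFI44, BST2, OAS3, IFIT3 and IFIT5, with root mean square differences of 0.13 to 0.19 log2 units over the 6 arrays among 9202 genes at or above the median level. Pearson's r with RIGI was 0.986 to 0.999 over the same 6 values, which share arrays and control. The genes were picked as nearest over these values, so a high r follows from the choice. Nearest to EIF2AK2 were IRF9, IFIT5, ISG15, ZC3HAV1 and PLSCR1, at 0.11 to 0.19 log2 units. IRF9, the DNA-binding part of ISGF3, had siDKK2 differences of -1.93 and -1.29 in the A673 and SK-N-MC arrays. Nearest to MAVS were ZNF324, ZFYVE26, ALKBH1, PIM2 and FITM2, at 0.02 to 0.05 log2 units, with differences of -0.24 to -0.35 in A673 and 0.23 to 0.35 in SK-N-MC. DDX60 and DDX60L were 0.16 log2 units apart by the same measure.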

How the data were processed

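Biotin-labelled total RNA of 6 cultures was measured on Affymetrix whole-transcript arrays. The authors deposited 1 log2 value per probe set, made with Affymetrix Expression Console and RMA per the submitters' processing notes; the log2 scale is read from the range of 1.02 to 13.4 and is not stated, and no version, setting or build was given in the sources used here. RMA normalizes between arrays and compresses dim values. Of 33297 probe sets 19460 had 1 gene symbol in the platform's annotation, and the probe set with the highest mean was kept, which left 18417 genes. All 6 columns matched 1 sample each, with 0 unused. The members and lists were chosen with earlier results of these data known, and nothing about them is independent evidence.

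Differences were fitted in R 4.3.3 with limma 3.58.1 (lmFit, eBayes) over the 6 arrays together, with terms for siRNA and for line, with 2 residual degrees of freedom, moderated to 8.28. P-values were adjusted by Benjamini-Hochberg over all genes, with a threshold of 0.05. For the siRNA comparisons they measure only how evenly the lines responded. Between the lines they measure only how evenly the gap held over the different siRNAs, which are not repeat cultures of a line. Arrays are paired by cell line, per the labels. Deviations from the siRNA means correlated at 0.849 to 0.872 between arrays of a line. With 2 lines these deviations are set by the gap between the lines, so the correlation does not test the pairing. Named genes were the members, the knock-down targets, up to 4 genes per pathway list, ranked by the smaller of the 2 lines' siDKK2 differences where both had 1 sign, and the 5 nearest to RIGI, EIF2AK2 and MAVS. The fit was tested on simulated data with no gap between the lines and the same shift in both. That test therefore does not cover lines that respond unequally. Promoter sequences are RefSeq's.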

Additional observations from a re-analysis of the deposited data

Results flagged for a closer look

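In 9 cases the lines differed in direction, each with 1 array per siRNA, so the difference was not tested. With siDKK2 against the control siRNA, TLR3 had 0.084 in A673 and -0.02 in SK-N-MC, MAVS -0.31 and 0.32, and TICAM1 0.00308 and -0.14. With siITM2A against the control, DHX58 had -0.32 and 0.36, DDX60 -0.81 and 0.13, and TICAM1 0.20 and -0.26. Between siDKK2 and siITM2A, ADAR had -0.56 and 0.15, MAVS -0.069 and 0.52, and TICAM1 -0.20 and 0.12, A673 first in each pair of log2 differences. TLR3 and DHX58 lay below the array's median on all 6 arrays, and DDX60 did so on 4.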

How the results depend on the processing

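The counts and gene values were recomputed without the block, with an intensity trend, with arrays centred or quantile normalized again, and with genes at or above the median level only. They were also recomputed with the mean of all probe sets, with only the arrays compared, and without each array in turn. The medians were recomputed likewise, except without the block, with an intensity trend and with only the arrays compared. With an intensity trend 1 member, EIF2AK2, passed with siDKK2 against control. With no replicate block (no siRNA term) 2 of 10 members passed between the lines, against 4 with it; without the line as a block 0 members passed in the siRNA comparisons, as with it. The value for IFNL1, siDKK2 against control siRNA, turned to 0.0052 with arrays centred on the median. The adaptors' median with siDKK2, -0.03, also changed sign, to 0.0091 with arrays centred and 0.0082 with arrays quantile normalized again, both near 0. The causes were not tested.

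Leaving out 1 array at a time gave 0 to 5 members with siDKK2 against control and with siDKK2 against siITM2A, 0 with siITM2A against control and 2 to 4 between the lines. The sensors' median ran from -2.33 to -0.35 with siDKK2, from -0.74 to 0.17 with siITM2A and from -1.99 to -0.06 between the knock-downs, and the adaptors' from -0.21 to 0.15, from -0.29 to 0.041 and from -0.08 to 0.27. Signs turned with siDKK2 against control for TLR3 (-0.064 to 0.13), MAVS (-0.30 to 0.31), TICAM1 (-0.22 to 0.083), STAU1 (-0.15 to 0.00054) and ADARB2 (-0.25 to 0.069). With siITM2A against control they turned for IFIH1 (-1.24 to 0.41), EIF2AK2 (-0.54 to 0.020), DDX60 (-1.23 to 0.55), DDX60L (-1.58 to 0.44), DHX58 (-0.28 to 0.32) and TICAM1 (-0.22 to 0.17). Between siDKK2 and siITM2A they turned for IFIH1 (-2.31 to 0.10), ADAR (-0.51 to 0.10), DDX60L (-2.50 to 0.18), TICAM1 (-0.23 to 0.16) and MAVS (-0.080 to 0.53), and between the lines for TICAM1 (-0.10 to 0.13). A fit without 1 array takes the gap between the lines from the other siRNAs, so a turned sign need not be that of either line. By value, IFIH1, EIF2AK2 and DDX60L were lower with siITM2A than with the control in both lines. IFIH1 and DDX60L were also lower with siDKK2 than with siITM2A in both, with a difference of only -0.04 each in SK-N-MC. Signal over background was not measured, so values near the floor are limited.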
